A study of Mus musculus with 8 samples.

Results

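The AP-1 family genes examined here are Jun, Junb, Jund, Fos, Fosb, Fosl1, Fosl2, Atf3, Batf and Batf3. They were chosen by name, and all 10 were found among the 24421 gene symbols of the RNA-seq count files. All 10 also passed the filter on low counts that left 12623 genes for testing. Batf3 did so with 339 counts in WT replicate 1 and at most 9 in the others. Fosl1 and Atf3 had only 6 to 19 counts in the libraries numbered 1. RNA was sequenced from bone marrow cells of C57BL/6 mice made leukemic with MLL-AF9, a fusion oncogene of acute leukemia, and sorted for a high level of c-KIT, the stem cell factor receptor that marks immature cells. The KO group is Ikzf2Δ/Δ, with 2 libraries, and the WT group is Ikzf2f/f, which carries the floxed but intact gene, also with 2 libraries. Ikzf2 encodes Helios, a DNA-binding relative of Ikaros. Both groups share MLL-AF9, the sort and thawing from frozen marrow. The labels give neither the Cre driver, the deleted exons nor the age of the mice. The sample titles number the libraries of each group 1 and 2. The deposited count files carry another number for 3 of the 4 libraries and share none between the groups, so the numbers used here come from the titles alone, and no label ties a number to a mouse, a batch or a day, or says whether the libraries of a group came from separate mice. The p-values thus reflect only how much these libraries vary, which may be technical within WT. The KO libraries differed in sex-linked genes, as given below. Another 4 samples, for chromatin accessibility, were not analysed here.

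AP-1 is a transcription factor made of pairs of basic leucine zipper (bZIP) proteins. JUN proteins can pair with each other or with FOS proteins, while FOS proteins need a JUN partner, and the pairs bind the DNA letters TGANTCA. Fos, Fosb, Jun, Junb and Atf3 are immediate early genes, which growth factors, cytokines and stress switch on quickly and without new protein synthesis. BATF and BATF3 pair with JUN proteins and bind DNA together with IRF4 or IRF8 in lymphoid and dendritic cells, and in myeloid cells AP-1 takes part in differentiation toward monocytes and macrophages.

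Promoter sequences are shown for Fos, Jun, Junb and Atf3, members that differed together between the libraries numbered 2 and 1, so that the letters before their starts can be compared. RefSeq windows (GRCm38.p6) matched 9 of the 10 members, and 8 of them end at the annotated start of the gene, while 73 of the 250 bases of the Fosb window lie inside the gene. The 250 bases before the annotated start are printed 5′ to 3′, with the matches in capitals. Fos lies on chromosome 12 (85473890 to 85477274), Jun on chromosome 4 (95049036 to 95052222), Junb on chromosome 8 (84976909 to 84978748) and Atf3 on chromosome 1 (191170296 to 191183333). Motifs were searched on both strands, with the sequences in view. They were the CRE letters TGACGTCA, the variants TGACATCA and TTACGTCA, and the CRE core TGACG, which TGACATCA lacks. Also searched were the AP-1 letters TGANTCA, the CCAAT box CCAAT, the TATA letters TATAAA and the CArG box bound by serum response factor.
Fos (chr12:85473640-85473889, plus strand): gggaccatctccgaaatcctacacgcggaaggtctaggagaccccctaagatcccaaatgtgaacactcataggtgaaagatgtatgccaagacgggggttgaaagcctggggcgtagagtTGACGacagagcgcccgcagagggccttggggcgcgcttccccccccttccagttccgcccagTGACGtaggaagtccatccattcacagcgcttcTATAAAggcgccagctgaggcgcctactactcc
Jun (chr4:95052223-95052472, minus strand): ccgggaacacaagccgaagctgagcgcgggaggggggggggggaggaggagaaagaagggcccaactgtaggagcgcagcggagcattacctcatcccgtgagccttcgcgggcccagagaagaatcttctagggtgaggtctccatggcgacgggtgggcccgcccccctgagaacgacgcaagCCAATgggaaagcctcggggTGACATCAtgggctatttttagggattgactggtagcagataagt
Junb (chr8:84978749-84978998, minus strand): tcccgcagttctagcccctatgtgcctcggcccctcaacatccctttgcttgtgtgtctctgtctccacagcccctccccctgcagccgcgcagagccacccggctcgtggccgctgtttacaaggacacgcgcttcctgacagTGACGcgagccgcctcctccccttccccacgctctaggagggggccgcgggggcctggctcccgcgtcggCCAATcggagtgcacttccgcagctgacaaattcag
Atf3 (chr1:191183334-191183583, minus strand): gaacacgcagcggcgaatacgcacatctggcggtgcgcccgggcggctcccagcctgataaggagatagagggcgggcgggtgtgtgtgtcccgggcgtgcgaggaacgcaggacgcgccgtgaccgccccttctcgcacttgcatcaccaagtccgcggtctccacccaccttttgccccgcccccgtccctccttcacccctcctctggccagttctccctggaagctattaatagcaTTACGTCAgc
Fos held TGACG at 129 to 125 and at 66 to 62 bases before the start, and TATAAA at 33 to 28. Jun held TGACATCA at 45 to 38 and CCAAT at 65 to 61. Junb held TGACG at 106 to 102 and CCAAT at 36 to 32, and Atf3 held TTACGTCA at 10 to 3, whose reverse strand overlaps a TGACG at 7 to 3. Of 32851 promoter windows of the same length, 17.8% held TGACG, 2.93% TGACATCA, 0.447% TTACGTCA, 33.8% CCAAT and 12.4% TATAAA. Batf also held TGACG, which makes 4 of the 8 members whose window ends at the gene's start, and the Fosb window held it as well. TGACGTCA (1.55% of windows), TGANTCA (6.75%) and the CArG box (1.47%) were in 0 of the 9 windows. Only these 250 bases were searched, so sites further from the start would be missed. These matches are letters, not measured sites.

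Gene counts per library ranged from 16006081 to 19286090, and values below are CPM, a gene's count relative to its library's total after TMM scaling. Ikzf2 itself had 26.5 and 10.9 CPM in KO replicates 2 and 1, and 271 and 283 CPM in WT replicates 2 and 1. KO replicate 1 stood apart from the other libraries in its sex-linked genes, with 833 CPM of Xist against at most 0.600 CPM elsewhere. The Y-linked gene Ddx3y was at 0.0619 CPM in that library and at 70.1 to 109.5 CPM elsewhere. KO replicates 2 and 1 thus differed in sex as well as in number, and the part of sex in the results below was not tested. The summed level of 11 dendritic and antigen presentation markers was also highest in KO replicate 1 (1858 CPM, against 189 to 408 CPM in the others). Most of it was Cd74 (821 CPM), H2-Aa (397 CPM), H2-Eb1 (282 CPM) and H2-Ab1 (268 CPM), which serve antigen presentation. Flt3 of the same list was lowest in KO replicate 1 (69.1 CPM, against 153 to 286 CPM in the others). Itgax was highest in WT replicate 1 (37.1 CPM, against 10.5 CPM in KO replicate 1). Neutrophil markers had a summed level over 9 genes of 18136 and 12890 CPM in KO replicates 2 and 1, and 3697 and 825 CPM in WT replicates 2 and 1, and 9 of 9 had a fitted change above 0 by number and 9 of 9 by genotype in edgeR, with 0 of them at 0 counts in all libraries. Unlike the AP-1 genes they differed more by genotype, with a median size of 2.70 by genotype and 1.45 by number in log2 CPM, and 7 of 9 did not overlap between the genotypes against 2 of 9 between the numbers. Of the 9, 7 were higher in number 2 within KO and within WT, against 28.6% of all genes tested. Camp (2605 and 4600 CPM in KO replicates 2 and 1) and Cxcr2 (6.46 and 13.1 CPM) were lower in number 2 within KO. The part of these cells in the results below was not tested. Leukemic progenitor markers were present in all 4 libraries, with Hoxa9 at 280 to 334 CPM and Kit at 216 to 376 CPM. Their summed level over 9 genes was 8178 and 10100 CPM in KO replicates 2 and 1, and 3753 and 3334 CPM in WT replicates 2 and 1, and most of that difference lay in Mpo, of myeloperoxidase, with 4311 and 7073 CPM in KO replicates 2 and 1, and 343 and 286 CPM in WT replicates 2 and 1. The T cell markers Cd3e and Cd8a and the globin gene Hba-a1 were at most 0.0619 CPM, while Nkg7 of the T and NK list was at 64.8 to 133 CPM, and Klf1 and Alas2 of the erythroid list at 0.584 to 1.18 CPM. In bulk RNA, fewer cells of a type and less RNA per cell cannot be told apart.

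The AP-1 genes differed more between the libraries numbered 2 and 1 than between KO and WT. The size of the number difference, in mean log2 CPM, was larger than that of the genotype difference for 10 of 10 members, against 51.7% of all genes tested. The median size over the members was 2.36 for the number difference and 0.89 for the genotype difference, and over all genes tested 0.29 and 0.27. Of the members 7 were higher in both libraries numbered 2 than in both numbered 1, against 19% of all genes tested, and 1 was lower, against 19.8%. Within KO and within WT the same 7 were higher in number 2, against 28.6% of all genes tested. Jun, Junb, Fos, Fosb, Fosl1 and Atf3 were higher in number 2 by at least 1 log2 unit within KO and also within WT, a pattern held by 2.13% of all genes tested. The family was chosen with the higher Jun and Fos in replicate 2 known, so these shares are a description. Fosl1 and Atf3 had only 6 to 19 counts in the libraries numbered 1. The 10 members together took 8246 and 1260 CPM in KO replicates 2 and 1, and 2972 and 991 CPM in WT replicates 2 and 1.

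**Figure D1:**
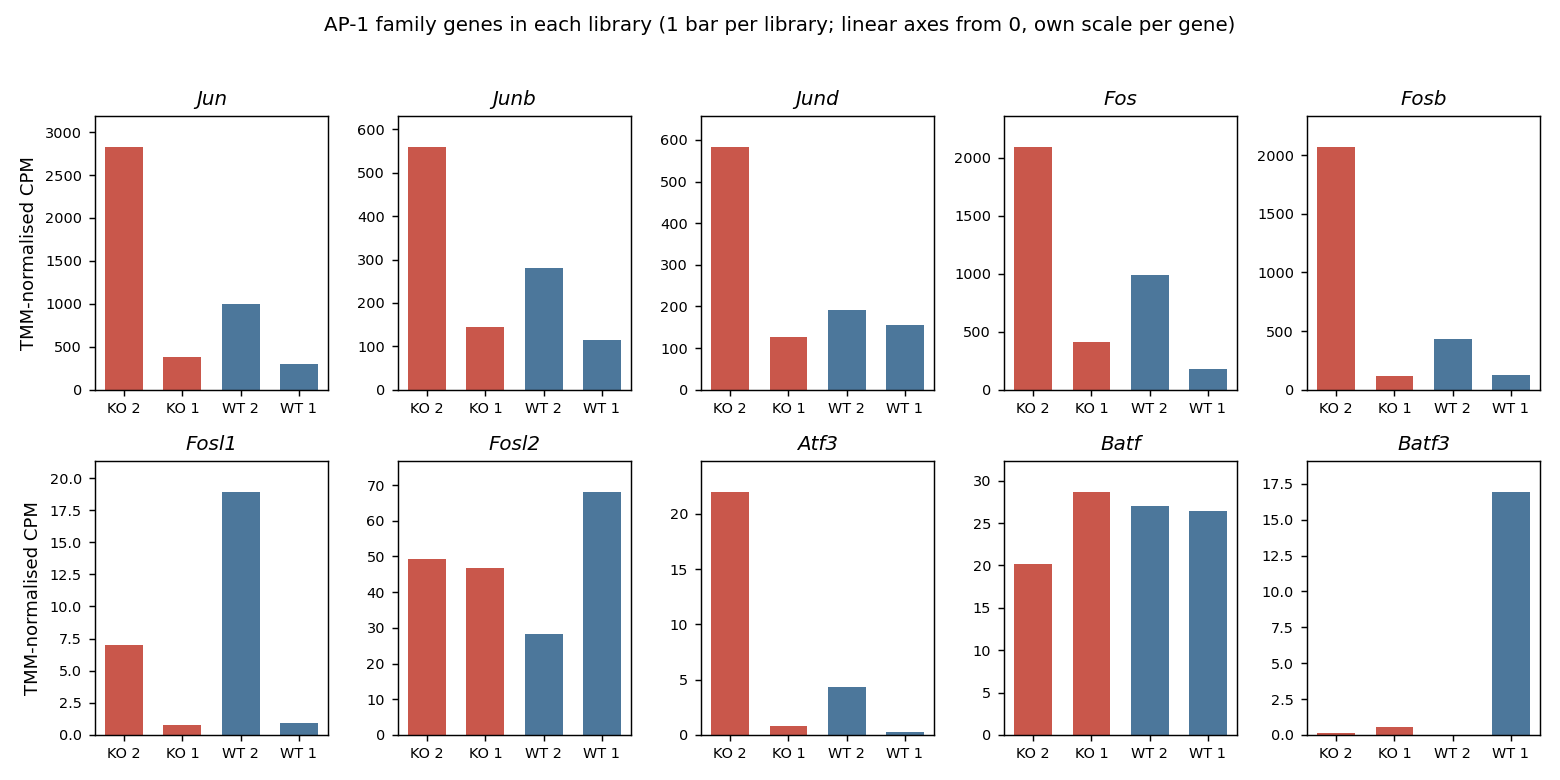
TMM-normalised CPM of each AP-1 gene (linear axis from 0, own scale per gene) in KO replicates 2 and 1 and WT replicates 2 and 1, with 1 bar per library and no error bar. Jun, Junb, Jund, Fos, Fosb, Fosl1 and Atf3 are higher in both libraries numbered 2 than in both numbered 1, while Batf stays between 20.1 and 28.7 CPM and Batf3 is above 1 CPM in WT replicate 1 alone.

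The difference by replicate number was tested in a fit that also held genotype, with edgeR's quasi-likelihood test. It called 0 of the 10 members at an adjusted p of 0.05, where it called 6 of all genes (0.0475%). At an unadjusted p under 0.05 edgeR counted 6 members as higher and 1 as lower, and 8.5% of all genes passed in either direction. DESeq2 with the same terms called 6 members, all higher in number 2, against 1.21% of its 16651 genes called as higher. On the genes that edgeR tested DESeq2 also called 6 members, and 264 of all 12623 genes. Without the filter on low counts edgeR called 5 members, all higher (Fos, Jun, Junb, Fosl1 and Atf3), and 75 of all 16651 genes. Of the members limma's voom called Fos alone (adjusted p = 0.0417), and it called 5 of all genes.

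Among the FOS proteins, which carry the activation domains of many AP-1 pairs, Fos had 2098 and 408 CPM in KO replicates 2 and 1, and 991 and 177 CPM in WT replicates 2 and 1. Number 2 was 5.14-fold above number 1 in KO and 5.60-fold above it in WT, so the steps were nearly equal. The log2 fold change of number 2 over 1 was 2.42 (SE 0.26; edgeR adjusted p = 0.108; DESeq2 adjusted p = 5.95e-17). Fosb, a FOS relative whose shorter splice form persists in stimulated neurons, had 2073 and 119 CPM in KO replicates 2 and 1, and 429 and 128 CPM in WT replicates 2 and 1. Its step was 17.4-fold in KO and 3.36-fold in WT, and KO replicate 2 stood far above the other libraries. The log2 fold change was 2.93 (SE 0.76; edgeR adjusted p = 0.515; DESeq2 adjusted p = 3.72e-09). As a ratio within a library, Fosb over Fos was 0.988 and 0.292 in KO replicates 2 and 1, and 0.433 and 0.721 in WT replicates 2 and 1. The ratio thus went in opposite directions by number in the 2 genotypes.

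Fosl1, which encodes FRA-1, a late FOS relative that lacks a strong activation domain, was low throughout. It had 119 and 12 counts (6.99 and 0.742 CPM) in KO replicates 2 and 1, and 357 and 19 counts (18.9 and 0.950 CPM) in WT replicates 2 and 1. The library highest in Fosl1 was therefore WT replicate 2 and not KO replicate 2. Its log2 fold change of number 2 over 1 was 3.79 (SE 0.61; edgeR adjusted p = 0.196; DESeq2 adjusted p = 1.55e-05). Fosl1 overlaps Ccdc85b by 2776 bases in the GRCm38.p6 annotation, and no strand setting is stated, so reads of these genes may not be told apart. Ccdc85b had 15.7 and 5.26 CPM in KO replicates 2 and 1, and 28.3 and 19.3 CPM in WT replicates 2 and 1, and its part in the Fosl1 values was not tested. Fosl2, which encodes FRA-2, did not share the pattern. It had 49.3 and 46.9 CPM in KO replicates 2 and 1, and 28.2 and 68.2 CPM in WT replicates 2 and 1, with a log2 fold change of number 2 over 1 of -0.60 (SE 0.38; edgeR adjusted p = 0.716). The KO libraries lay between the WT libraries.

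Among the JUN proteins, Jun had 2832 and 383 CPM in KO replicates 2 and 1, and 1002 and 303 CPM in WT replicates 2 and 1. Both libraries numbered 1 were below both numbered 2, and WT replicate 2 was above KO replicate 1. The log2 fold change of number 2 over 1 was 2.30 (SE 0.36; edgeR adjusted p = 0.205; DESeq2 adjusted p = 5.74e-10). Junb, a JUN protein that often restrains JUN activity, had 560 and 144 CPM in KO replicates 2 and 1, and 279 and 115 CPM in WT replicates 2 and 1. Its log2 fold change was 1.62 (SE 0.27; edgeR adjusted p = 0.205; DESeq2 adjusted p = 1.15e-05). Jund, the JUN protein that many resting cells express steadily, had 584 and 127 CPM in KO replicates 2 and 1, and 192 and 155 CPM in WT replicates 2 and 1. The libraries other than KO replicate 2 lay within 127 to 192 CPM. For Jund the log2 fold change was 1.25 (SE 0.55), and neither edgeR (adjusted p = 0.641) nor DESeq2 (adjusted p = 0.0592) called it. As a ratio within a library, Fos over Jun was 0.741 and 1.07 in KO replicates 2 and 1, and 0.990 and 0.584 in WT replicates 2 and 1, so it had no common direction by number. Jund over Jun was lower in number 2 in both genotypes, at 0.206 and 0.332 in KO replicates 2 and 1, and 0.191 and 0.512 in WT replicates 2 and 1. The same held for Junb over Jun, at 0.198 and 0.377 in KO replicates 2 and 1, and 0.279 and 0.378 in WT replicates 2 and 1.

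Atf3, a stress-induced bZIP factor that pairs with JUN proteins, had 375 and 13 counts (22.0 and 0.804 CPM) in KO replicates 2 and 1. It had 82 and 6 counts (4.35 and 0.300 CPM) in WT replicates 2 and 1. The log2 fold change of number 2 over 1 was 4.34 (SE 0.62; edgeR adjusted p = 0.178; DESeq2 adjusted p = 1.31e-06). Batf, which lacks an activation domain of its own, had 20.1 and 28.7 CPM in KO replicates 2 and 1, and 27.1 and 26.4 CPM in WT replicates 2 and 1. It was the steadiest member, with a log2 fold change by number of -0.24 (SE 0.29; edgeR adjusted p = 0.852). Batf3, needed in mice for the dendritic cells that present antigen to CD8 T cells, had 2 and 9 counts in KO replicates 2 and 1, and 0 and 339 counts in WT replicates 2 and 1. That made 16.96 CPM in WT replicate 1 and at most 0.557 CPM in the other libraries, where a count of 3 equals 0.159 to 0.186 CPM. Its fitted change by number, -6.15 (SE 2.19; edgeR adjusted p = 0.582; DESeq2 adjusted p = 0.526), rests on that library. The dendritic markers did not share this pattern as a list, whose summed level was 408 and 1858 CPM in KO replicates 2 and 1, and 189 and 325 CPM in WT replicates 2 and 1. Itgax was highest in WT replicate 1, with 5.58 and 10.46 CPM in KO replicates 2 and 1, and 2.12 and 37.1 CPM in WT replicates 2 and 1. Cd74 and H2-Aa were lowest in that library, at 2.45 and 1.70 CPM, and Cd209a, Siglech and Zbtb46 were at 0 there. Clec9a and Xcr1 were at most 1.55 CPM in any library. The part of such cells in the Batf3 values was not tested.

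The DESeq2 calls by number were repeated with each library left out, where genotype was also dropped from the model. With all 4 libraries and no genotype term DESeq2 called the same 6 members, and Batf3 as lower (adjusted p = 0.00669), among 143 genes called. Jun was called in all 4 of these fits, with a highest adjusted p of 0.0260 without KO replicate 2. Without KO replicate 2 the calls of Fos (adjusted p = 0.182), Junb (0.484) and Atf3 (0.9999) were lost. Fosb was no longer called when WT replicate 1 was omitted (adjusted p = 0.428), or KO replicate 1 (0.609), the library that stood apart, and Fosl1 when WT replicate 2 was (0.614). The Fosb log2 fold change was then 3.41 and 3.30, against 3.36 with all libraries and no genotype term. Batf3 passed as lower without KO replicate 1 (adjusted p = 2.24e-07) or KO replicate 2 (0.0312), and Jund as higher without WT replicate 2 (1.72e-04). Without KO replicate 2 the DESeq2 log2 fold changes were 1.76 for Fos, 1.11 for Junb, 2.99 for Atf3, 1.55 for Jun and 1.80 for Fosb, each still above 0.

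KO was then set against WT, which asks whether cells that lost Ikzf2 hold these genes at another level. Their values overlapped between the genotypes in 10 of 10 members, so that 0 lay wholly above or below WT, against 18.1% and 19.1% of all genes tested. Of the members, 7 were higher and 1 lower in both libraries numbered 2 than in both numbered 1. For these the overlap follows from the number difference and is no separate result. In a fit that held genotype and not the number, edgeR's quasi-likelihood test called 0 members and 0 of all genes (0%). At an unadjusted p under 0.05 it also had 0 members, against 7.67% of all genes tested. DESeq2 called 0 members, where it called 2.11% of all genes, and voom called 0. The median log2 fold change over the members was 0.94, and over all genes tested it was -0.0043. Fos averaged 1253 ± 1195 CPM in KO and 584 ± 576 CPM in WT, and Jun 1607 ± 1732 CPM in KO and 653 ± 494 CPM in WT (SD, n = 2 each). For Fos the log2 fold change of KO over WT was 1.10 (SE 1.06; edgeR adjusted p = 0.902), for Jun 1.30 (SE 1.04; adjusted p = 0.880) and for Fosb 1.98 (SE 1.33; adjusted p = 0.845). Junb had 0.84 (SE 0.75; adjusted p = 0.897), Jund 1.04 (SE 0.71; adjusted p = 0.850) and Atf3 2.30 (SE 1.77; adjusted p = 0.866). Fosl1 had -1.36 (SE 1.57; adjusted p = 0.923) and Batf3 -4.63 (SE 2.45; adjusted p = 0.772). Batf had -0.13 (SE 0.29; adjusted p = 0.971) and Fosl2 -0.0039 (SE 0.43; adjusted p = 0.99975). For 10 of 10 members the SD of CPM within KO or within WT was larger than the difference of the group means. That SD holds the number difference. The number difference stayed in the error of these fits, whereas the fit by number held genotype. With the number also held, edgeR called 0 members. It had 4 (Jun, Junb, Fos and Atf3, all higher in KO) at an unadjusted p under 0.05, and 1209 of all genes tested. DESeq2 with both terms called Fos as higher in KO (adjusted p = 0.00103), among 381 genes called. No label pairs the libraries by number.

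The directions in the fit without the number turned on KO replicate 2. Without it the edgeR log2 fold change was -0.77 for Jun, -0.45 for Junb, -0.45 for Jund, -0.52 for Fos, -1.22 for Fosb and -1.52 for Atf3, against values above 0 with all libraries. That fit set KO replicate 1 against both WT libraries, so genotype and number were not balanced in it. Between the libraries numbered 1 alone, KO was above WT in log2 CPM for Jun (0.34), Junb (0.33), Fos (1.20) and Atf3 (1.15). It was below WT for Jund (-0.29) and Fosb (-0.10). The median over the members was -0.64 without KO replicate 2. With other libraries left out it ran from 0.69 (no WT replicate 1) to 1.835 (no WT replicate 2). It was 1.63 with the library that stood apart, KO replicate 1, left out. Without WT replicate 2 edgeR called Batf3 as lower in KO (log2 fold change -5.62; adjusted p = 0.00895), and Fosl1 turned to 2.03. DESeq2 called Batf3 and Atf3 without WT replicate 2 (adjusted p = 2.75e-06 and 0.00504) and Jund without KO replicate 1 (2.03e-05).

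**Figure D2:**
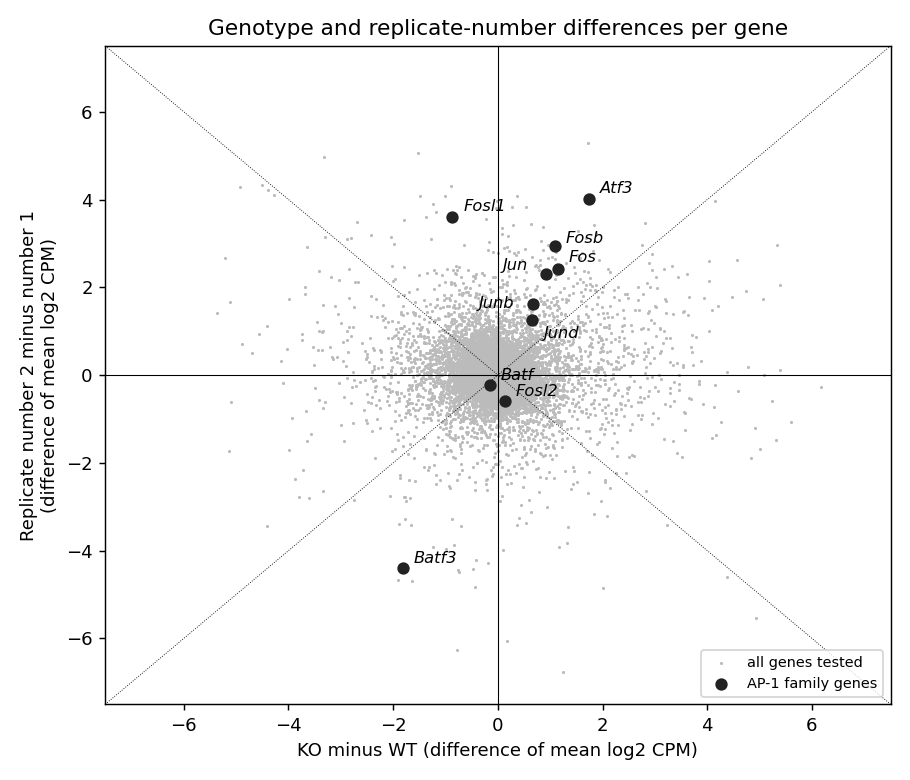
Difference of mean log2 CPM between KO and WT (horizontal) and between the libraries numbered 2 and 1 (vertical) for the AP-1 genes (black) and all genes tested (grey, 2 of which lie beyond the axes). Dotted diagonals mark equal size of both differences, and all 10 members lie nearer the vertical axis, with a number difference of 4.02 for Atf3, 2.42 for Fos and -4.41 for Batf3.

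The genotypes can also be compared within each number, with 1 library on each side. No label pairs these libraries. At number 1 the KO and WT libraries also differed in sex-linked genes, so genotype is not separated there from sex. Within number 2, KO was above WT by 1.08 log2 units for Fos, 1.50 for Jun, 1.004 for Junb, 1.61 for Jund, 2.27 for Fosb and 2.31 for Atf3. Within number 1 the same difference was 1.20 for Fos, 0.34 for Jun, 0.33 for Junb, -0.29 for Jund, -0.10 for Fosb and 1.15 for Atf3. Fos and Atf3 were thus higher in KO by at least 1 log2 unit at either number, a pattern of 2.94% of all genes tested. Jun, Junb, Fos and Atf3, 4 of the 10 members, were above WT at both numbers, against 27.3% of all genes tested. Jund and Fosb were higher in KO at number 2 and lower in KO at number 1. No test was possible for how the differences depend on each other, since 4 libraries leave no residual degrees of freedom for it.

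Split over the 3 terms of this layout, the number took 81.8% of the variance of log2 CPM for Jun, 82.5% for Junb, 81.7% for Fos, 76.9% for Fosb, 92.5% for Fosl1 and 82.9% for Atf3. Genotype took 12.97% for Jun, 14.0% for Junb, 18.2% for Fos, 10.54% for Fosb, 5.36% for Fosl1 and 15.4% for Atf3. The rest, the dependence of one difference on the other, was smallest for Fos (0.0525%) and largest for Fosl2 (54.4%), Batf (48.2%) and Jund (31.0%). Jund was 3.05-fold as high in KO as in WT at number 2 and 0.819-fold as high at number 1.

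**Figure D3:**
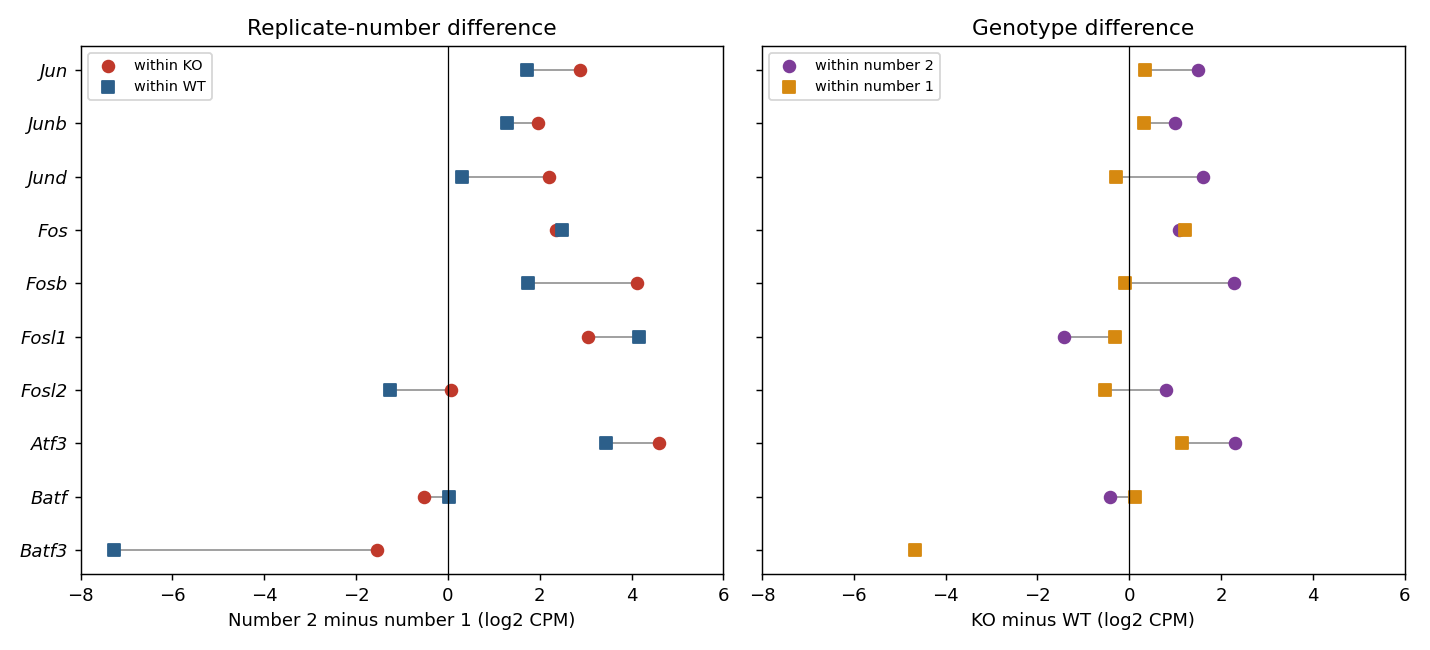
Left, difference in log2 CPM of number 2 over number 1 for each AP-1 gene within KO (circles) and within WT (squares); right, difference of KO over WT within number 2 (circles) and within number 1 (squares), each point from 1 pair of libraries, with Batf3 at number 2 left out because both counts were below 3. On the left 7 genes lie above 0 in both genotypes, and on the right Fos has nearly the same value at both numbers (1.08 and 1.20) while Fosb has 2.27 and -0.10.

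Other immediate early genes moved with the AP-1 genes between the numbers. Of 27 tested genes of that list 27 had a higher value in number 2, with a median log2 fold change of 1.27, where over all genes tested 49.2% were above 0 and the median was -0.0069. edgeR called 2 of them as higher and DESeq2 called 12 as higher, and neither called any as lower. Egr1, a zinc finger factor induced beside Fos, rose in number 2 by edgeR (log2 fold change 3.24, SE 0.24, adjusted p = 0.0320). It had 639 and 73.3 CPM in KO replicates 2 and 1, and 189 and 18.4 CPM in WT replicates 2 and 1. Btg2, an antiproliferative immediate early gene, also rose (log2 fold change 2.56, SE 0.22, edgeR adjusted p = 0.0384), and Klf4, a zinc finger factor, had 2.85 (SE 0.36, edgeR adjusted p = 0.178; DESeq2 adjusted p = 3.09e-10). With a library and the genotype term left out edgeR no longer called Egr1 or Btg2 (lowest adjusted p = 0.442), nor with the genotype term alone left out (adjusted p = 0.7996 for each). DESeq2 lost Egr1 with that term alone left out (adjusted p = 0.2245), and both without that term and KO replicate 2 (adjusted p = 0.4315 and 0.319). DESeq2 kept Klf4 with the genotype term alone left out (adjusted p = 0.0057). Of the fits that also omit a library, DESeq2 called Klf4 only in that without WT replicate 2.

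Of 19 tested genes that damp AP-1 signalling or turn over its messages, 15 had a positive number difference (median 0.55). DESeq2 called 7 as higher and edgeR 0, with 7 at an unadjusted p under 0.05. Zfp36, which encodes the mRNA decay factor tristetraprolin, had 1600 and 410 CPM in KO replicates 2 and 1, and 583 and 205 CPM in WT replicates 2 and 1 (log2 fold change 1.74, SE 0.26, DESeq2 adjusted p = 1.57e-07). Dusp1, a phosphatase of the JNK and p38 kinases, had 836 and 131 CPM in KO replicates 2 and 1, and 308 and 130 CPM in WT replicates 2 and 1 (log2 fold change 1.96, SE 0.41, DESeq2 adjusted p = 5.83e-06). Tob1, an antiproliferative partner of BTG proteins, had 1.77 (SE 0.26, DESeq2 adjusted p = 2.75e-04) and Zfp36l1, a relative of Zfp36, 2.40 (SE 0.43, DESeq2 adjusted p = 5.16e-05). Without KO replicate 2 DESeq2 lost Zfp36 and Tob1 (adjusted p = 0.9999 for each), Dusp1 (0.181) and Zfp36l1 (0.420). It also lost Zfp36 (0.175) and Tob1 (0.0973) without WT replicate 1, and Zfp36l1 (0.275) without WT replicate 2. These fits hold no genotype term, and with all libraries Zfp36 was lost when that term was dropped (adjusted p = 0.0652).

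Of 18 tested genes known as AP-1 targets, 14 had a positive number difference (median 0.66), and edgeR called 1 and DESeq2 4, each as higher. Mmp9, a matrix metalloproteinase also stored in neutrophil granules, rose by edgeR (log2 fold change 3.37, SE 0.23, adjusted p = 0.0320). It had 278 and 26.0 CPM in KO replicates 2 and 1, and 255 and 25.6 CPM in WT replicates 2 and 1. DESeq2 called Mmp9 with each library and the genotype term left out (highest adjusted p = 1.66e-11). edgeR did not (lowest adjusted p = 0.250), and it lost Mmp9 with all libraries once that term was dropped (adjusted p = 0.165). The summed level of the neutrophil markers, given above, was also higher in number 2 within KO and within WT. The number difference was larger than the genotype difference for Mmp9 and for 2 of the 9 markers. Within KO and within WT 7 of the 9 were higher in number 2. Among them was Mmp8, with 16.5 and 4.08 CPM in KO replicates 2 and 1, and 8.81 and 1.60 CPM in WT replicates 2 and 1. Camp and Cxcr2 were lower in number 2 within KO. The part of neutrophils in the Mmp9 values was not tested. The cytokine gene Tnf had a log2 fold change of 2.03 (SE 0.28, DESeq2 adjusted p = 3.54e-05) and Lmna, of the nuclear lamina, 1.36 (SE 0.27, DESeq2 adjusted p = 0.0311). Of the fits that omit a library, DESeq2 called Tnf only in that without KO replicate 1 and Lmna only in that without WT replicate 1, and Tnf was lost with all libraries when the genotype term was dropped (adjusted p = 0.185).

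For heat shock genes, which answer stress on proteins, 10 of 11 tested genes had a positive number difference and the median was 0.73, with 1 called by edgeR and 2 by DESeq2, all as higher. Hspa1a rose by edgeR (log2 fold change 4.26, SE 0.35, adjusted p = 0.0384), with 85.4 and 4.45 CPM in KO replicates 2 and 1, and 3.93 and 0.200 CPM in WT replicates 2 and 1. Its near-identical copy Hspa1b had 2.97 (SE 0.50, DESeq2 adjusted p = 2.42e-05), and since the copies share sequence their split counts are uncertain. Dnaja1, an HSP40 co-chaperone, had 0.93 (SE 0.26, edgeR adjusted p = 0.415). Without KO replicate 2 the log2 fold change was 0.76 for Hspa1a and -1.10 for Hspa1b, neither called by edgeR or DESeq2. DESeq2 called Hspa1a in 0 of the 4 fits that omit a library, and Hspa1b in that without WT replicate 2 (adjusted p = 0.0205). With all libraries and no genotype term it called neither (adjusted p = 0.609 for Hspa1a and 0.808 for Hspa1b).

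The other bZIP factors of the ATF, MAF and CNC groups and the kinases and serum response partners upstream of AP-1 had medians nearer 0. Of 22 tested bZIP factors 14 were above 0, with a median of 0.17, and of 27 upstream genes 17, with a median of 0.15; edgeR and DESeq2 called 0 in either list, with 1 at an unadjusted p under 0.05 by edgeR in each. Mafg, a small MAF protein, had a log2 fold change of 0.60 (SE 0.22, edgeR adjusted p = 0.533), the stress factor gene Ddit3 0.64 (SE 0.33, adjusted p = 0.651) and Maf -1.49 (SE 0.87, adjusted p = 0.694). Among the upstream genes Mef2d had 0.91 (SE 0.26, adjusted p = 0.455), Elk3 0.48 (SE 0.21, adjusted p = 0.602) and Elk4, an ETS partner of serum response factor, 0.80 (SE 0.40, adjusted p = 0.651). DESeq2 called Mef2d without WT replicate 1 (adjusted p = 0.01955). Maf turned to 0.068 without WT replicate 1 and Elk3 to -0.31 without WT replicate 2.

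Between the genotypes, edgeR called 0 genes in the 6 related lists, and 13 of their 124 tested genes (10.5%) passed at an unadjusted p under 0.05, against 7.67% of all genes tested. Of 27 other immediate early genes 23 had a log2 fold change of KO over WT above 0, and the median was 0.87, while over all genes tested 49.5% were above 0. The other medians were 0.32 for the feedback genes, 0.21 for the wider bZIP factors, 0.20 for the AP-1 targets, 0.034 for the upstream genes and 0.025 for heat shock genes, whose median in log2 CPM was -0.15. Jdp2, a bZIP repressor that pairs with JUN, had 97.2 and 120 CPM in KO replicates 2 and 1, and 66.5 and 69.4 CPM in WT replicates 2 and 1 (log2 fold change 0.67, SE 0.20, edgeR adjusted p = 0.506). Nfil3, a bZIP repressor of lymphoid and myeloid cells, had 50.6 and 48.7 CPM in KO replicates 2 and 1, and 23.1 and 30.1 CPM in WT replicates 2 and 1 (log2 fold change 0.90, SE 0.24, edgeR adjusted p = 0.456). For both genes the KO libraries lay above the WT libraries, and the number made little difference.

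Elk3, an ETS repressor that works with serum response factor, fell by DESeq2 (adjusted p = 0.0231), and edgeR gave a log2 fold change of -1.28 (SE 0.29), with 56.8 and 45.5 CPM in KO replicates 2 and 1, and 151 and 96.6 CPM in WT replicates 2 and 1. Map3k1, a kinase above JNK, had 0.93 (SE 0.30, edgeR adjusted p = 0.545). Of the AP-1 targets Icam1, an adhesion molecule, fell by DESeq2 (edgeR log2 fold change -1.12, SE 0.24; DESeq2 adjusted p = 0.0148), while Plau, of urokinase, and Il1b, of interleukin 1 beta, rose by DESeq2 (2.12, SE 0.56, and 3.30, SE 1.04; DESeq2 adjusted p = 0.0388 and 0.0473). Vegfa had 156 and 160 CPM in KO replicates 2 and 1, and 93.1 and 96.1 CPM in WT replicates 2 and 1 (log2 fold change 0.74, SE 0.19, edgeR adjusted p = 0.444). Of its 4 fits that omit a library, DESeq2 called Elk3 only in that without KO replicate 2, Il1b only in that without WT replicate 2, and Icam1 and Plau in 0, with lowest adjusted p-values of 0.177 and 0.475. The immediate early genes Nfkbia and Nr4a3 had 0.87 (SE 0.22, edgeR adjusted p = 0.452) and 4.37 (SE 1.04, adjusted p = 0.444), the feedback genes Nr3c1 and Spry1 0.47 (SE 0.20, adjusted p = 0.687) and 1.44 (SE 0.71, adjusted p = 0.747). Hspa1b rose by DESeq2 in KO (edgeR log2 fold change 5.37, SE 1.44; DESeq2 adjusted p = 0.0379), and of the 4 fits that omit a library the call was kept only in that without KO replicate 1, and Hspa1a had 4.45 (SE 1.82, edgeR adjusted p = 0.668).

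**Figure D4:**
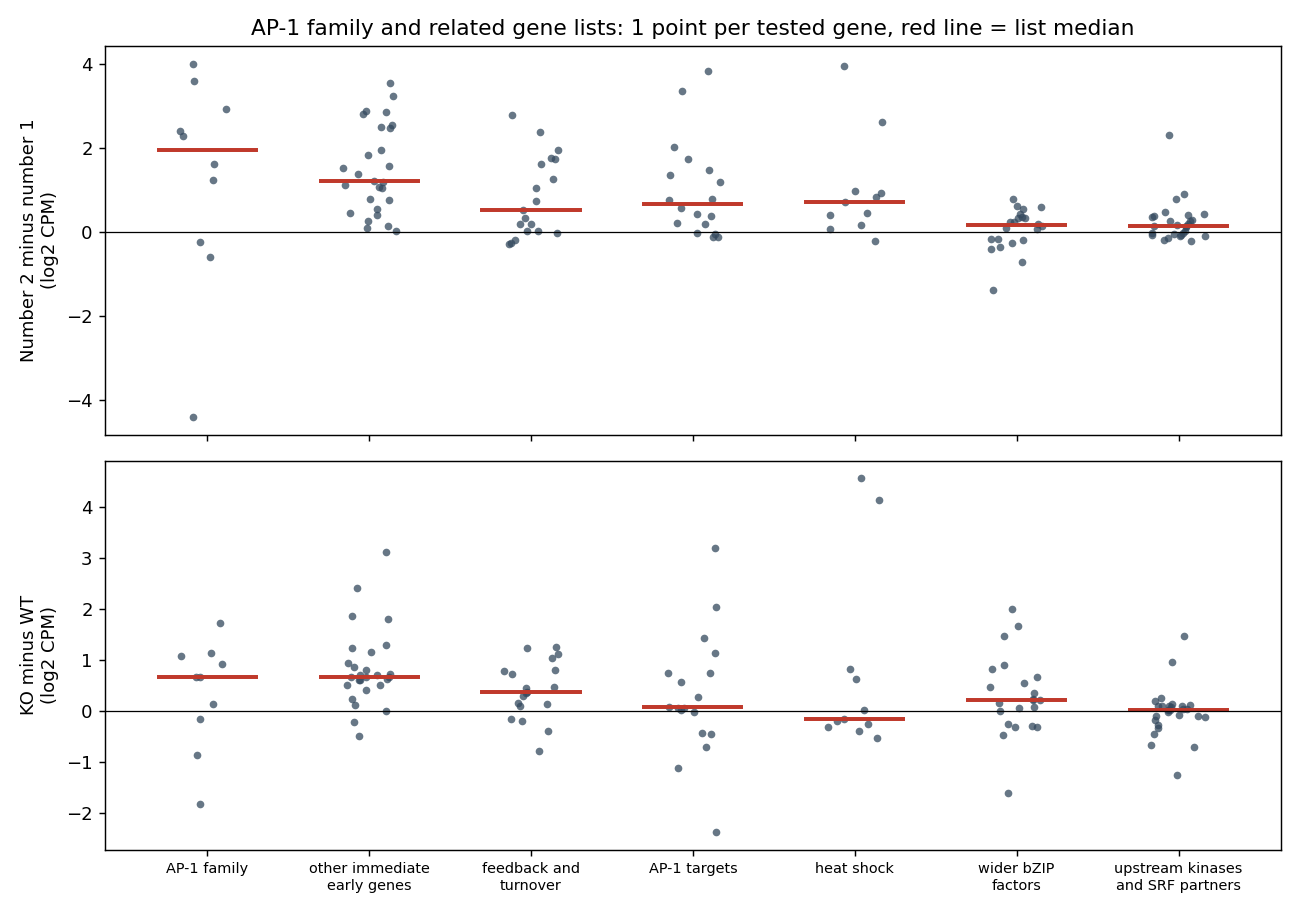
Differences of mean log2 CPM by replicate number (top, number 2 minus number 1) and by genotype (bottom, KO minus WT) for each tested gene of the AP-1 family and 6 related lists, with red lines at the list medians. By number the median is 1.96 for the AP-1 family and 1.21 for the other immediate early genes, against 0.17 for the wider bZIP factors and 0.15 for the upstream genes; by genotype it is 0.66 for each of the first 2 lists.

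The genes whose pattern was most like that of Fos were found by the smallest Euclidean distance of centred log2 CPM over the 4 libraries, among 7596 named genes with a mean of at least 20 CPM. They were Btg2 (distance 0.256), Nfkbiz (0.337), Med12l (0.515), Tnf (0.568) and Zfp36l1 (0.724). Nfkbiz had 56.2 and 9.77 CPM in KO replicates 2 and 1, and 22.1 and 5.30 CPM in WT replicates 2 and 1. For the steady member Batf the nearest were Smim19 (distance 0.0243), Zfp317 (0.0393), Esd (0.0468), Thoc7 (0.0481) and Eif4e (0.0512). Over 4 libraries many genes can lie this near, and the distances are a description.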

How the data were processed

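RNA-seq of 4 libraries was used. The authors deposited 1 file for each library, holding raw counts by gene symbol. Per the submitters' processing notes build mm10 was used, and Bowtie2 2.2.5, HTSeq, MACS2, Picard and STAR 2.3.0 are named without a role. Annotation, strandedness and read filtering: not given in the sources used here. Each file ends in 5 rows for reads without a gene (69.35% to 72.42% of all counts), which were dropped.

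Analyses used R 4.3.3. edgeR 4.0.16 kept genes by filterByExpr, scaled counts by TMM and applied the robust quasi-likelihood F-test with Benjamini-Hochberg adjustment over all genes tested, for KO against WT with no covariate and for replicate number 2 against 1 with genotype in the model, which leaves 1 residual degree of freedom. A call is an adjusted p under 0.05. The SE is |log2 fold change| over the root of F. Alternatives were DESeq2 1.42.0, on 16651 genes, and voom (limma 3.58.1). Differences of log2 CPM used a prior count of 2. Fits were also run on simulated counts, where only the sign and median size of known changes were required to be right. Those counts never held a genotype and a number difference together, so they give no error rate for these data. Groups and numbers came from the sample titles. Replicates differed by more than counting error (chi-square per degree of freedom 113.5 in KO and 84.3 in WT).

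The members, the gene lists and the tests were chosen with earlier results of these data known, among them the higher Jun and Fos in replicate 2. All members are named. From 6 related lists the text names the 3 genes of smallest p by number, the 2 by genotype, and called genes (up to 4 by DESeq2 where edgeR called none). Genes of similar pattern follow a distance rule. Ccdc85b, Xist, Ddx3y, single markers and genes lost with a library left out were named after their values were seen. Intervals and floors cover counting error only.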

Additional observations from a re-analysis of the deposited data

How the results depend on the processing

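The count of called genes moved with the tool, the filter on low counts and the model terms. For KO against WT edgeR gave 0 calls with all libraries, 4 without a filter on low counts, 11 with the replicate number as a block and 0 to 156 with a library left out. DESeq2 gave 352, 324 on the genes that edgeR tested, 381 with the block, and 162 to 390 with a library left out. For number 2 against 1 edgeR gave 6 calls, 3 with RLE size factors, 75 without a filter, and 0 without robust moderation, without the genotype term or with any library left out. DESeq2 gave 265, 264 on the genes that edgeR tested, 143 without the genotype term, and 78 to 336 with a library left out as well as that term. Leaving out a library in the comparison by number always dropped the genotype term too, in both tools. Fits that leave a lone library in an arm assume that it varies like the other arm.

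Of the members called by number, edgeR's 0 became 5 without a filter, voom called 1 and DESeq2 6, or 7 without the genotype term, with 4 to 6 for DESeq2 and 0 for edgeR with a library left out. For KO against WT the members called were 0, or 1 with the block in DESeq2, and 0 to 2 with a library left out. The median of the members by genotype ran from -0.64 to 1.84 with a library left out, in edgeR as in DESeq2, and the median by number from 1.33 to 2.50, lowest without KO replicate 2. Without a filter, edgeR's Fosl2 value of -0.0039 for KO over WT became 0.0081; it was 0.0097 with RLE factors, 0.0078 with DESeq2, 0.0098 with DESeq2 on the genes that edgeR tested and 0.12 with voom. With a library left out, over edgeR and DESeq2 fits, the values of KO over WT ran from -0.77 to 2.43 for Jun, -0.45 to 1.64 for Junb, -0.45 to 1.76 for Jund, -0.52 to 2.84 for Fos, -1.22 to 3.12 for Fosb, -3.74 to 2.045 for Fosl1, -0.49 to 0.78 for Fosl2, -1.53 to 5.27 for Atf3, -0.41 to 0.11 for Batf and -6.16 to 5.11 for Batf3. Those of number 2 over 1 ran from -2.89 to 0.073 for Maf, -0.31 to 1.20 for Elk3 and -1.11 to 6.57 for Hspa1b. With a library left out, the fits of KO over WT held no number term and the fits by number no genotype term, so number and genotype were not balanced in them. The cause of the reversals was not tested. In edgeR Batf3 did not pass the filter without WT replicate 1. Scaling by library sizes alone moved the median of all genes by less than 0.1 and turned no sign of a member.

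The numbers do not show which libraries belong together: the number differences of KO and WT correlated at 0.190 over 12623 genes (a description), and the highest correlation of log2 CPM, 0.950, was between KO replicate 2 and WT replicate 2. With the replicate block, edgeR had 4 members at an unadjusted p under 0.05 (Jun 0.0409, Junb 0.0417, Fos 0.00317 and Atf3 0.0135) and 1209 of all genes, against 0 members and 968 of all genes without it. DESeq2 then called Fos as higher in KO (log2 fold change 1.15, adjusted p = 0.00103) and edgeR did not (1.14, adjusted p = 0.191), and Hspa1a was called by edgeR (4.44, adjusted p = 0.0259). With the block the Fosl2 value was 0.13 in edgeR and 0.14 in DESeq2. DESeq2 fits with a library left out, without the genotype term or on the genes that edgeR tested were chosen after seeing the data.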

Other observations

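Of the 6 genes that edgeR called by replicate number, 4 are named with the lists of the report, and the others were Ifitm6 and Pcdh7, named after their values were seen. Ifitm6, a membrane protein gene of the interferon-induced IFITM family, rose in number 2, with 147 and 21.5 CPM in KO replicates 2 and 1, and 24.99 and 2.70 CPM in WT replicates 2 and 1 (log2 fold change 2.98, SE 0.26, edgeR adjusted p = 0.0384). Pcdh7, a protocadherin of cell adhesion, fell in number 2, with 0.0587 and 0.866 CPM in KO replicates 2 and 1, and 22.3 and 429.9 CPM in WT replicates 2 and 1 (log2 fold change -4.23, SE 0.30, edgeR adjusted p = 0.0320).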
